A study of Mus musculus with 18 samples.

Results

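The differentiation of E14 mouse embryonic stem cells that lack Quaking was followed by ribosome profiling, from the stem cell state (day 0) to day 10 of embryoid body culture. The 6 libraries were those titled as Quaking KO, 3 at day 10 and 3 at day 0, out of 18 in the series. The other 12 libraries were 3 at each of the same days from unedited cells (WT) and from a Sam68 knockout line (Sam68 KO). All 3 lines have the E14 background, all libraries were made from cells treated with cycloheximide, which stalls ribosomes on the mRNA, and the series calls the replicates biological. The labels name the knocked-out gene but not the allele, the number of clones or the culture medium, so the Quaking KO results describe the line as labelled.

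Embryoid bodies are aggregates in which stem cells leave pluripotency and form cells of the early germ layers. Quaking is an RNA-binding protein of the STAR family, like Sam68, and is known for binding ACUAA-type elements in RNA and for roles in splicing, RNA stability and translation, in myelinating glia and in vascular development among others. In ribosome profiling, the mRNA pieces shielded by ribosomes are sequenced, so a count rises with the amount of an mRNA and with its translation, and the 2 were not separated here. In whole embryoid bodies, fewer cells of a type and less RNA per cell cannot be told apart either.

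Features in the deposited tables are Ensembl identifiers with no gene names, and none of the 13701 features tested matched the reference table used for names. Germ layer markers, the level of the Quaking gene and the other gene lists written by symbol were therefore not analysed here, and no sequences are shown. The Quaking KO libraries held 988210, 3281358 and 3153749 counts at day 10 and 3019843, 1373377 and 2541479 at day 0. They were shallower than the WT day 0 libraries, which held at least 5413775 counts. A level of 3 counts, taken as the floor, was 0.775 to 2.78 CPM (counts scaled by library size with TMM factors) at day 10 and 0.895 to 1.72 CPM at day 0. Within the line, the day 10 libraries came from sequencing pool MIX_3 and the day 0 libraries from MIX_1, so day and pool cannot be told apart. In 3 libraries of the other lines, WT day 10 replicate 3 and Sam68 KO day 10 replicates 2 and 3, the 10 largest features took over 40% of the counts; in the Quaking KO libraries they took 24.6% to 30.0% at day 10 and 11.9% to 21.3% at day 0.

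Over 10 days, the levels of most features changed in Quaking KO cells. Of 13701 features, day 10 levels were above those of day 0 for 4755 and below them for 4022, in all 64.1% of the features tested. A feature was called where the p of edgeR's quasi-likelihood test, adjusted by the Benjamini-Hochberg method, was under 0.05. The changes reached further upward than downward: 2460 features were called higher by at least 4-fold and 1076 lower, and at 16-fold the counts were 1141 and 338. With no filter on low counts the balance of all calls turned, with 4231 higher and 4725 lower of 33167 features and 3689 against 3680 at 2-fold, while at 4-fold it was 2640 against 1653 and at 16-fold 1402 against 590. Leaving out WT day 10 replicate 1 or 2, or Sam68 KO day 10 replicate 1, brought the counts to 4456 to 4482 higher and 4285 to 4317 lower. Among called features the median log2 fold change was 2.09 for those higher and -1.35 for those lower, against 0.11 over all features tested. The 3 libraries of day 10 all lay above, or all below, the 3 of day 0 for 8159 of the 8777 called features. Over all 13701 features tested, called or not, this held for 8929. The calls compare the same 6 libraries, so the count among called features is no separate support. The first principal component of the 6 libraries held 84.3% of the variance and split the days. The second, with 7.77%, set day 10 replicate 1, the shallowest library, apart from the other 2 of that day.

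**Figure D1:**
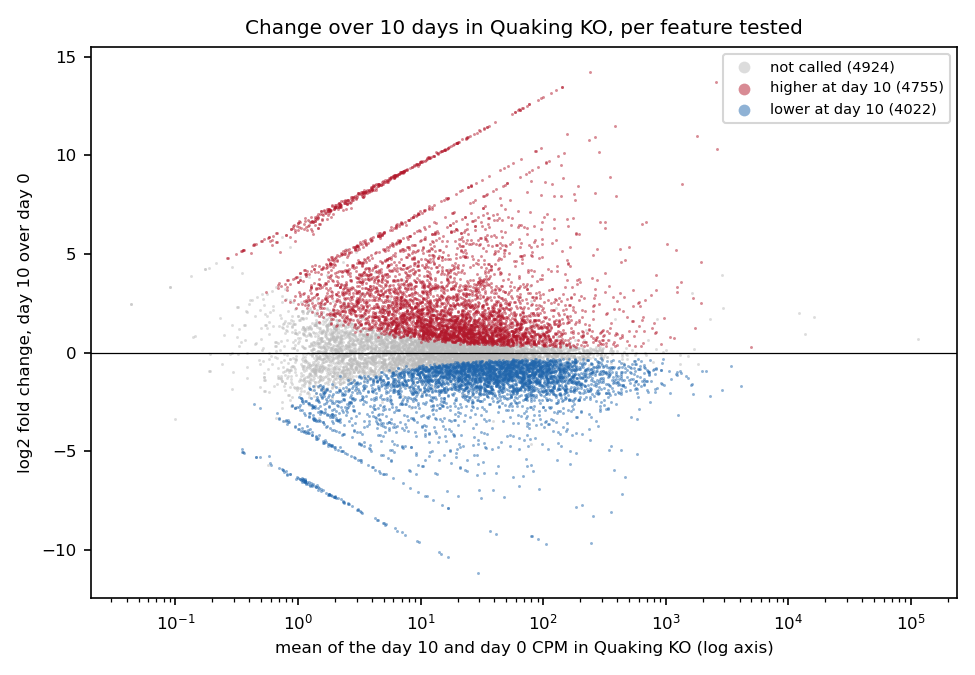
Log2 fold change (day 10 over day 0) of each feature in Quaking KO against its mean CPM over both days on a log axis, with 1 point per feature, called at an adjusted p of 0.05. Called features that are higher (median log2 fold change 2.09) spread further from the zero line than those that are lower (median -1.35); the diagonal stripes are features with no or few counts on 1 day, whose fitted fold is no measured size.

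The direction of change went with the level of a feature. Among the 1596 features that averaged 100 CPM or more over all 18 libraries, 880 were lower and 369 higher at day 10. Among the 7302 between 10 and 100 CPM, 2319 were lower and 2596 higher. Among the 4718 between 1 and 10 CPM, 803 were lower and 1756 higher. The share called either way was 78.3% in the highest of these classes and 54.2% in the lowest, where the median standard error of the log2 fold change was 0.65 against 0.15.

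Footprints moved between these sets on a large scale. The 3805 features called higher by at least 2-fold (27.8% of those tested) held 28.2%, 26.5% and 27.0% of the counts in the day 10 libraries, against 4.68%, 5.37% and 5.16% in the day 0 libraries. The 2713 features called lower by at least 2-fold (19.8%) held 9.74%, 11.5% and 11.1% at day 10, against 35.4%, 38.8% and 40.8% at day 0. These shares describe the sets that the same libraries chose, and no test was made of them. In the other lines, whose libraries entered the same fit but not this contrast, the set called higher held 20.2% ± 10.3 of the counts at day 10 and 5.95% ± 0.28 at day 0 in WT, and 16.5% ± 7.64 and 7.004% ± 0.564 in Sam68 KO (SD, n = 3 each). The lower day 10 means and wide spread there go with the 3 libraries in which 10 features hold over 40% of the counts. Those held 8.28% (WT replicate 3), 13.1% and 11.2% (Sam68 KO replicates 2 and 3). The other day 10 libraries held 26.7% and 25.6% in WT and 25.3% in Sam68 KO. Among called features whose days did not overlap, the 10 with the largest increase in CPM made up 9.10% of all increases. The 10 with the largest decrease made up 7.14% of all decreases. Those totals include features outside that choice, which were not ranked, so larger shares among them are not excluded.

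Among called features whose days did not overlap, the 2 with the largest gains in CPM had few counts at day 0. Both were abundant in all 3 lines at day 10. ENSMUSG00000048583.16 had 6015, 4432 and 5349 CPM in the Quaking KO day 10 libraries, against 4.77, 4.59 and 3.12 CPM at day 0. The groups did not overlap, and the log2 fold change was 10.31 (SE 0.40, edgeR adjusted p = 8.06e-12). It also rose in the other lines, to 4048 ± 891 CPM in WT against 11.8 ± 3.13, and to 3713 ± 739 in Sam68 KO against 7.53 ± 2.91 (day 10 against day 0, SD, n = 3). The rise in Quaking KO was larger than in WT by 1.88 on the log2 scale (edgeR adjusted p = 0.0107), and by 1.36 than in Sam68 KO, which did not pass (edgeR adjusted p = 0.0526). At day 0 every WT library (8.69 to 15.0 CPM) lay above every Quaking KO library. WT day 10 replicate 3 (5049 CPM) lay within the range of the Quaking KO day 10 libraries. The comparison with Sam68 KO passed without Quaking KO day 10 replicate 2, Sam68 KO day 0 replicate 3, or Sam68 KO day 10 replicate 2 or 3 (edgeR adjusted p = 0.00984 to 0.0470), with DESeq2 (0.0131) and with no filter on low counts (0.00105).

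ENSMUSG00000026043.18 had 5292, 4623 and 5498 CPM at day 10, against 0.298, 0.574 and 0.312 CPM at day 0, which is 1 count in each day 0 library. The counting ratio was 14036, with a 95% interval of 4803 to 68066 that covers counting error only. All 3 lines had high levels at day 10, with 5138 ± 457 CPM in Quaking KO, 3071 ± 212 in WT and 1885 ± 331 in Sam68 KO. Its rise in Quaking KO exceeded that in Sam68 KO by 3.14 on the log2 scale (edgeR adjusted p = 0.000879), a call lost when all libraries were thinned to the smallest total (adjusted p = 0.0676). The difference from WT, 1.15, did not pass (edgeR adjusted p = 0.486).

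The 2 features with the largest losses under the same conditions remained abundant. ENSMUSG00000023944.14 had 1763, 2185 and 1900 CPM in the day 10 libraries, against 6175, 6254 and 6512 at day 0. It fell by 1.70 on the log2 scale (SE 0.12, edgeR adjusted p = 5.74e-12) with no overlap between the days. The falls in WT (1742 ± 156 CPM at day 10 and 6111 ± 492 at day 0) and Sam68 KO (1678 ± 196 and 6858 ± 323) did not differ from it past the threshold (edgeR adjusted p = 0.739 and 0.189). ENSMUSG00000077323.1 had 570, 1342 and 1753 CPM at day 10, against 4213, 5210 and 3998 at day 0, with day 10 replicate 1 the lowest. It fell by 1.87 (SE 0.42, edgeR adjusted p = 0.00164).

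**Figure D2:**
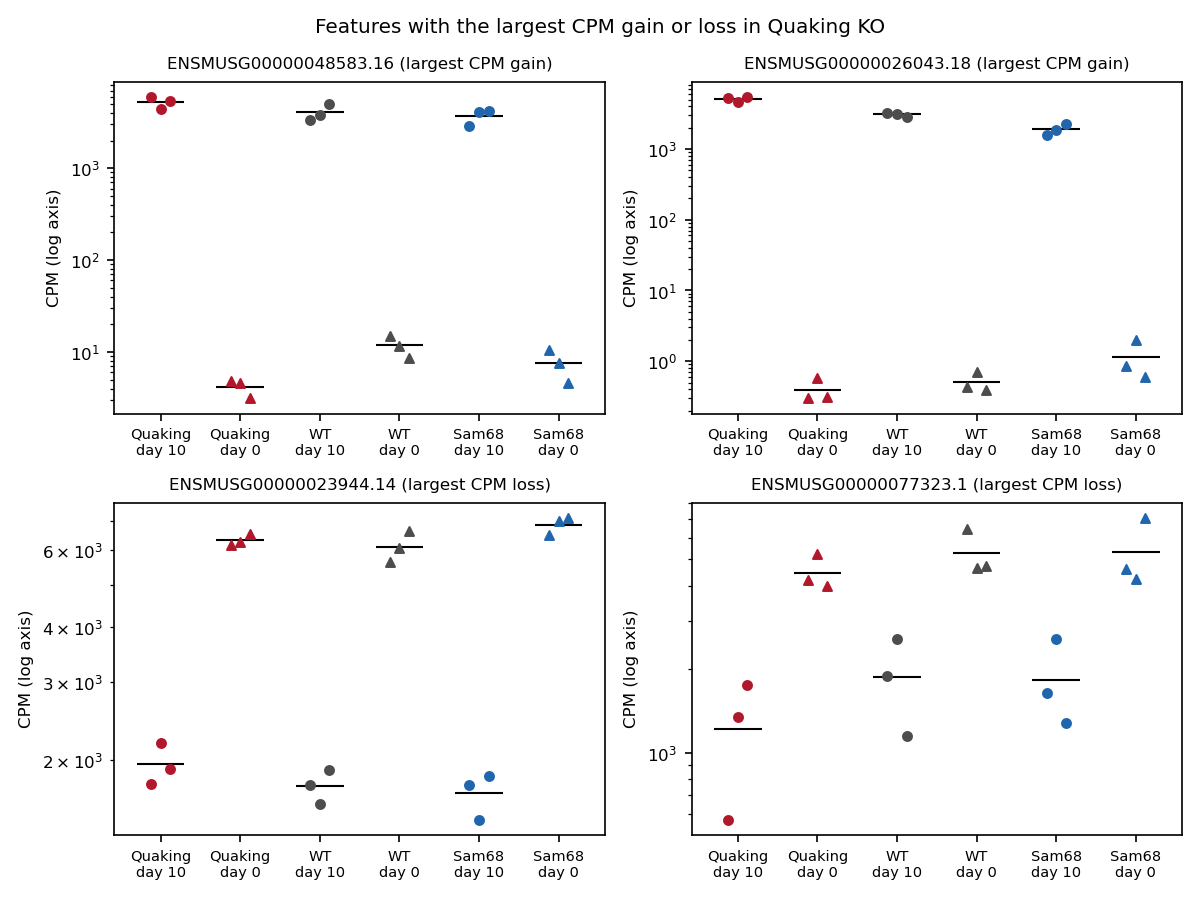
CPM per library on a log axis in all 6 groups. Each point is 1 library (circles day 10, triangles day 0), with a line at each group mean. Shown are the 2 features with the largest gain and the 2 with the largest loss in Quaking KO, among called features whose days did not overlap. For each feature the 3 Quaking KO day 10 libraries lie apart from the 3 day 0 libraries, as the choice required. WT and Sam68 KO move the same way.

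Far more features were gained than lost. Called features that went to at least 10 CPM at day 10 and averaged under 1 CPM at day 0 numbered 524, and 91 went the other way. Of the 524, 149 had no count in any day 0 library, 406 had at least 10 CPM in each day 10 library and 56 averaged at least 100 CPM. Of the 91 lost features, 12 had no count at day 10 and 5 had averaged at least 100 CPM at day 0. Together the gained features summed to 29491 ± 708 CPM at day 10 against 169 ± 32.5 at day 0, and the lost ones to 35.9 ± 14.8 CPM at day 10 against 3348 ± 98.9 at day 0 (SD, n = 3).

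Most of the gained and lost features also changed in the other lines, whose libraries entered the same fit but not this contrast. Of the 524 gained in Quaking KO, 506 were called higher at day 10 in WT and 472 in Sam68 KO, where 34.9% of all features tested were called higher in each line. None of them was called lower in WT, and 1 was in Sam68 KO. Of the 91 lost, 89 were called lower in WT and 83 in Sam68 KO, against 30.1% and 30.5% of all features. With the sets taken from a fit of the 6 Quaking KO libraries alone and the other lines from a fit of their 12, 545 features were gained, 462 of them tested in the other lines, where 453 were higher in WT and 439 in Sam68 KO. Of 100 lost, all tested there, 99 were lower in WT and 95 in Sam68 KO. The rest of the 545 gained features did not pass the low-count filter in the other lines, so their change there was not tested. A feature with few counts at day 0 passes that filter mainly through its day 10 libraries. A rise among the 462 is therefore partly built into the filter. At day 10 the 524 features summed to 28990 to 30301 CPM in the Quaking KO libraries, 20640 to 24076 in WT and 18839 to 19535 in Sam68 KO. Since they were picked for a high level in Quaking KO, a lower level elsewhere is partly built into this choice.

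**Figure D3:**
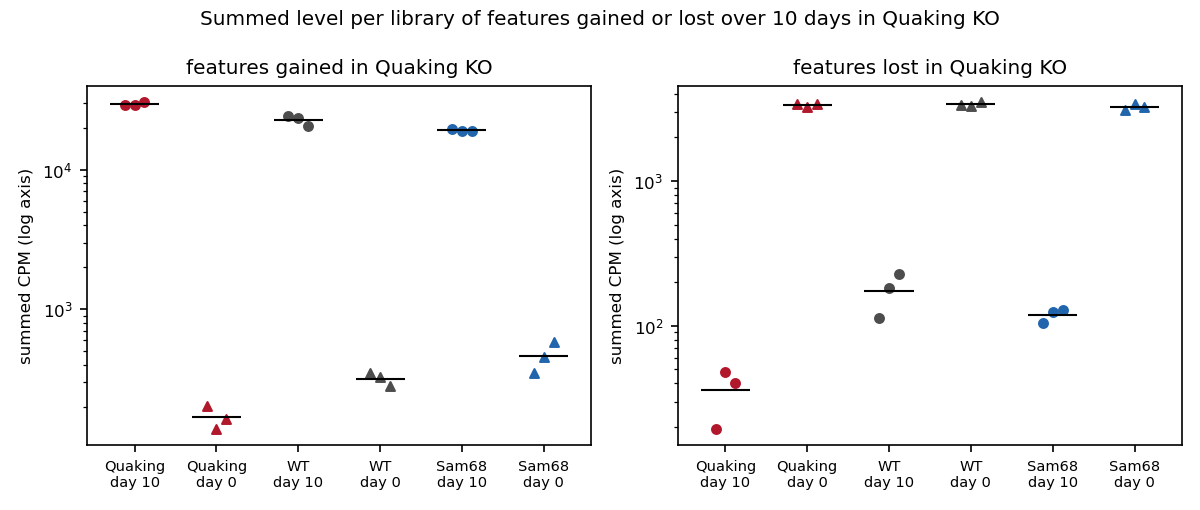
Summed CPM per library, on a log axis, of the 524 features gained and the 91 lost over 10 days in Quaking KO, with 1 point per library (circles day 10, triangles day 0) and a line at each group mean. The 3 lines move the same way for both sets, and the Quaking KO libraries, which chose the sets, lie at the extreme on each day other than day 0 of the lost set.

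By the same rule, applied to each line in turn, 524 features were gained in Quaking KO, 326 in WT and 325 in Sam68 KO, and 91, 55 and 71 were lost. With every library thinned to 988210 counts the gained features numbered 473, 281 and 279, and the lost ones 96, 54 and 68. Thinned and without the 3 libraries that few features dominate, they were 450, 316 and 280 gained, and 98, 74 and 86 lost. The line with the most gained features was Quaking KO under each of these settings, but the differences between the counts were not tested. Features gained from no count at all depended strongly on depth: there were 149 in Quaking KO, 27 in WT and 11 in Sam68 KO at full depth, and 215, 103 and 77 after thinning.

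Most features that changed in both other lines changed the same way in Quaking KO. Chosen on the changes in the other lines, 3197 features were called higher by at least 2-fold at day 10 in both WT and Sam68 KO, where 27.3% and 27.5% of features were so called in each line. Of these, 2765 (86.5%) were called higher in Quaking KO, where 34.7% of all features were, 419 were not called and 13 were lower. Their median log2 fold change was 2.61 in Quaking KO, 2.55 in WT and 2.55 in Sam68 KO. Another 2234 features fell in both other lines by the same rule (19.7% of features in WT and 20.1% in Sam68 KO). Of these, 2036 (91.1%) were lower in Quaking KO, where 29.4% of all features were, 188 were not called and 10 were higher. Their median log2 fold change was -1.69 in Quaking KO, -1.79 in WT and -1.87 in Sam68 KO. From separate fits of the 12 other libraries and of the 6 Quaking KO libraries, 3141 and 2236 features were chosen, of which 2570 and 1982 were tested in Quaking KO. There 2328 (90.6%) were higher, where 35.1% of all features were, and 1818 (91.7%) were lower, where 29.5% were. Both percentages are of the features tested. The rest of the 3141 and 2236 had too few counts in the Quaking KO libraries to pass the low-count filter. The percentages leave these out, so they are not comparable with the 86.5% and 91.1% above.

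A smaller part of the course differed from the other lines. The change over 10 days differed between Quaking KO and WT for 1216 features (8.88%), more positive in Quaking KO for 701 (5.12%) and more negative for 515 (3.76%). Between Quaking KO and Sam68 KO it differed for 1551 (11.3%), more positive for 914 (6.67%) and more negative for 637 (4.65%; edgeR interaction, adjusted p below 0.05). Both differences were called with the same sign for 854 features (6.23%), 492 above both lines and 362 below both. These 2 comparisons share the Quaking KO libraries, so the count in common does not rest on separate samples. The Quaking KO course ran from pool MIX_1 to MIX_3, that of WT from MIX_1 to MIX_2 and that of Sam68 KO from MIX_2 to MIX_3, so line and pool cannot be told apart in these differences in change. Single days share a pool in part: the Quaking KO and Sam68 KO libraries of day 10 are both in MIX_3, and the Quaking KO and WT libraries of day 0 both in MIX_1. The counts also depended on depth: after thinning, 155 features lay above both and 182 below, 149 and 167 of them among those at full depth. Without the 3 dominated libraries the balance turned: 386 lay above both and 470 below, 662 were more positive and 752 more negative than in WT, and 604 and 685 than in Sam68 KO. The number more positive than in Sam68 KO was 572 without Sam68 KO day 10 replicate 2 alone.

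The 492 features above both lines were of several kinds. For 217 all 3 lines rose and Quaking KO rose most, and 133 rose in Quaking KO and were called higher in neither other line, 24 of them falling in both others. Another 60 fell in both other lines and were not called in Quaking KO, and 46 fell in all 3 lines but least in Quaking KO. Of the 362 below both, 77 fell in all 3 lines and most in Quaking KO, and 103 fell in Quaking KO and were called lower in neither other line, 34 of them rising in both others. A further 81 rose in both other lines and were not called in Quaking KO, and 81 rose in all 3 lines but least in Quaking KO.

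**Figure D4:**
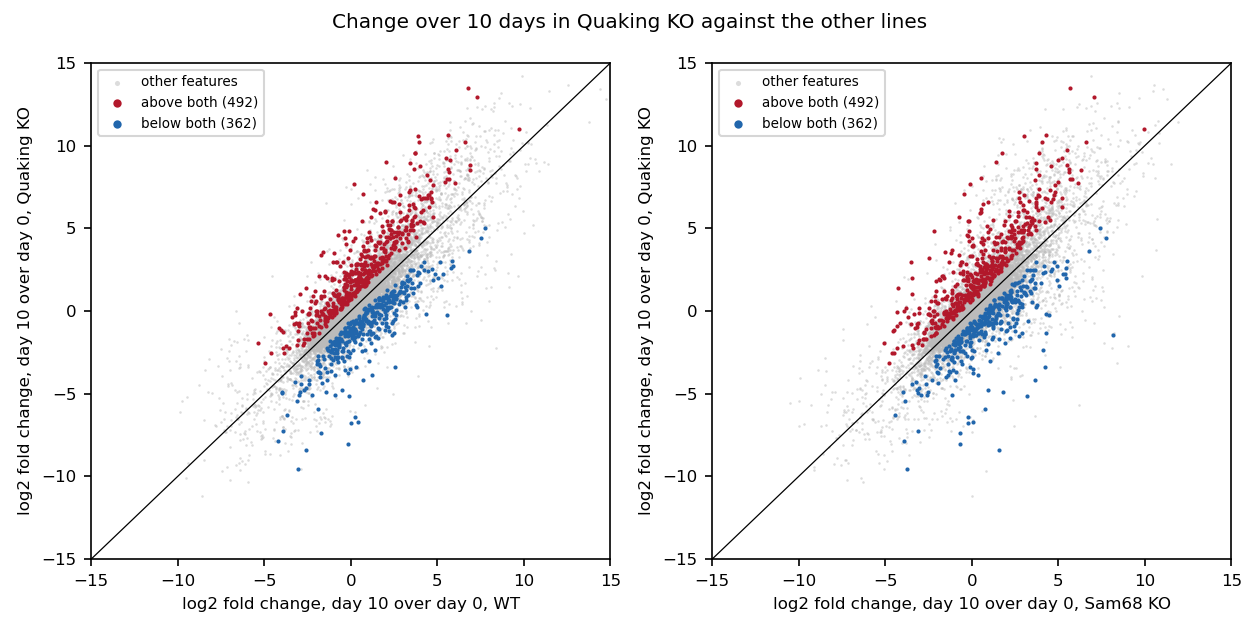
Log2 fold change over 10 days (day 10 over day 0) in Quaking KO on the vertical axis against that in WT (left) and Sam68 KO (right), with 1 point per feature tested and a line of equality. Red points are the 492 features whose change in Quaking KO lay above both other lines and blue points the 362 below both; most features follow the line.

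The features that led this list by size had no or few counts in 1 Quaking KO group. ENSMUSG00000028989.3 had 267, 277 and 309 CPM in the Quaking KO day 10 libraries and no count at day 0, at least 240-fold higher against the floor of 3 counts per library. At day 10 it had 17.1 ± 4.72 CPM in WT and 10.0 ± 7.35 in Sam68 KO, so the Quaking KO libraries lay more than 10-fold above every library of the other lines. The tested difference in its change, 6.71 from WT and 7.80 from Sam68 KO on the log2 scale (edgeR adjusted p = 0.0435 and 0.0250), rests on that zero and is no measured size. Against WT it was lost without any 1 of 11 of the 12 libraries compared (adjusted p = 0.0504 to 0.152), all but WT day 10 replicate 3, and against Sam68 KO without Sam68 KO day 0 replicate 2 or 3 (0.0636 and 0.185). Both were lost on thinning (adjusted p = 0.246 and 0.9999), that from WT with a replicate block (0.0522), and that from Sam68 KO in a fit of only the libraries compared (0.0717).

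ENSMUSG00000030074.9 had 13.0, 9.55 and 16.0 CPM at day 10 and no count at day 0 in Quaking KO, at least 10.8-fold higher. Its day 10 level was 0.665 to 2.35 CPM in the WT libraries and 0.956 to 1.85 in the Sam68 KO libraries, below each of the Quaking KO libraries. These levels rest on 10, 3 and 1 counts in WT and on 10, 2 and 2 in Sam68 KO. Most lay at or under the floor of 3 counts, which was 7.05 CPM in WT day 10 replicate 3. The difference from WT, 6.93, had an edgeR adjusted p of 0.0360 and was lost without any 1 of 6 libraries (adjusted p = 0.0601 to 0.128): the 3 Quaking KO day 0 libraries, Quaking KO day 10 replicate 3, WT day 0 replicate 1 and WT day 10 replicate 2. That from Sam68 KO, 7.61 (adjusted p = 0.0116), was lost without Sam68 KO day 0 replicate 3 (0.119). Without the 3 dominated libraries the difference from WT missed the threshold (0.0516).

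ENSMUSG00000025480.5 had no count in the Quaking KO day 10 libraries, against 20.3, 14.4 and 21.2 CPM at day 0, at least 12.7-fold lower. Its day 10 levels elsewhere, 2.05 ± 0.28 CPM in WT and 1.46 ± 0.54 in Sam68 KO, lay near the floors of 0.775 to 2.78 CPM in the Quaking KO day 10 libraries. The fitted changes differed by -6.50 from WT and -5.83 from Sam68 KO (edgeR adjusted p = 0.000238 and 0.00120), sizes that rest on the zero. Both differences passed with each library left out in turn (adjusted p up to 0.00219 and 0.0309), and neither passed on thinning (adjusted p = 0.298 and 0.512). ENSMUSG00000065770.1 had 3 counts in all at day 10, all in replicate 2, against 40.0, 51.1 and 95.5 CPM at day 0. The day 0 level exceeded that of day 10 by a counting ratio of 181, with a 95% interval of 61.6 to 880. It measured 17.7 ± 10.6 CPM at day 10 and 62.8 ± 14.7 at day 0 in WT, and 10.6 ± 5.25 and 15.0 ± 2.18 in Sam68 KO. The fitted differences were -5.67 from WT and -6.71 from Sam68 KO (edgeR adjusted p = 0.00146 and 0.000374), and both grew by over 1.5 times without Quaking KO day 10 replicate 2, to -9.59 and -10.61, since that leaves no count at day 10.

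Cell-cycle genes could be followed as lists of identifiers, taken from the mouse phase markers distributed with the scran package and limited to features that mark 1 phase only. Of 29 G2/M features tested, genes most active as cells prepare for and pass through mitosis, 17 fell and 4 rose in Quaking KO, where 29.4% of all features were lower and 34.7% higher. Their median log2 fold change was -0.74 against 0.11 over all features. Among all features that averaged 100 CPM or more, 55.1% fell and 23.1% rose. Between 10 and 100 CPM, 31.8% fell and 35.6% rose. How the G2/M features were spread over these level classes was not examined. The summed level of the G2/M features was 1985, 1993 and 2095 CPM at day 10, against 4357, 4465 and 4359 CPM at day 0. The G2/M sums of the 2 days did not overlap. WT cells had 2021 ± 43.0 CPM at day 10 and 4645 ± 183 at day 0, and Sam68 KO cells 1997 ± 24.5 and 4331 ± 329 (SD, n = 3), so the 3 lines ended at like sums.

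Of 11 G1 features, which mark cells before DNA synthesis, 6 fell and 1 rose, against the same 29.4% and 34.7% of all features, with a median of -1.62. Among all features that averaged 100 CPM or more, 55.1% fell and 23.1% rose, and the levels of the single G1 features were not examined. The G1 features summed to 980, 1038 and 1021 CPM at day 10, against 3228, 2943 and 3085 at day 0. The G1 sums also fell in WT, from 3057 ± 212 CPM to 1176 ± 274, and in Sam68 KO, from 2982 ± 168 to 1033 ± 63.1 (SD, n = 3). The 35 S-phase features, which mark DNA synthesis, stood near all features: 12 rose and 8 fell, against 34.7% and 29.4% of all features, with a median of 0.14. Each day 10 library had a lower S-phase sum than each day 0 library, with 1302, 1341 and 1347 CPM against 1798, 1790 and 1989 at day 0. At day 10 the S-phase sum was 1330 ± 24.4 CPM in Quaking KO, 1560 ± 78.2 in WT and 1587 ± 57.7 in Sam68 KO, and at day 0 it was 1859 ± 113, 1888 ± 84.2 and 1930 ± 141. Feature by feature, the change in Quaking KO differed from that in WT for 3 of the 35 S-phase features, 2 of the 29 G2/M features and none of the 11 G1 features (edgeR interaction, adjusted p below 0.05), where 8.88% of all features did. No test was made of the sums.

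**Figure D5:**
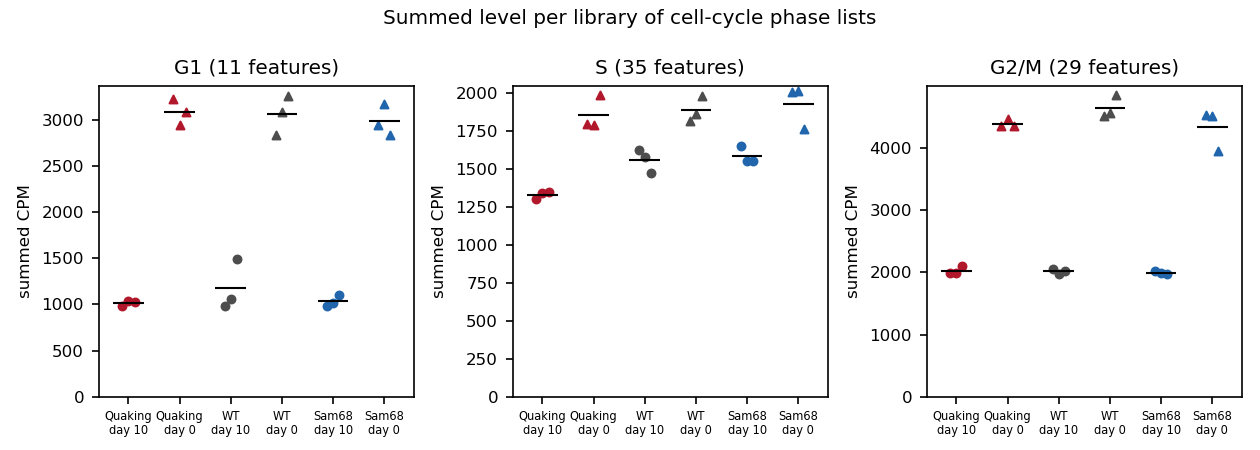
Summed CPM per library of the features marking G1 (11), S (35) and G2/M (29), from 0, in the 6 groups, with 1 point per library (circles day 10, triangles day 0) and a line at each group mean. All 3 sums are lower at day 10 in Quaking KO, as in WT and Sam68 KO, and the Quaking KO S-phase sum at day 10 lies below that of the other lines.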

How the data were processed

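The authors deposited raw counts, 1 table for each of 18 samples, as whole numbers for 51826 versioned Ensembl identifiers. A count was present for 33167. The tools named in the submitters' processing notes are STAR 2.5.3a, Bowtie2 and bcl2fastq 2.17.1.14, and the builds GRCm38 and mm10. How features were counted, with which annotation and whether by strand, is not given in the sources used here, so overlapping, antisense and near-identical genes are uncertain.

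Counts were tested with edgeR 4.0.16 (R 4.3.3; robust quasi-likelihood fit, TMM scaling, default filter by group, 13701 features kept, at least 99.4% of each library's counts), with a mean for each of the 6 groups in 1 fit of all 18 libraries. Two-sided p-values were adjusted over all features tested. Differences between lines are interaction contrasts of that fit. CPM use TMM library sizes, errors are SD over 3 libraries, and principal components used log2 of CPM plus 1. Intervals (95%, exact binomial) and the floor of 3 counts cover counting error only. The fit was tested on simulated counts.

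The lists, comparisons and features were chosen with earlier results of these data known. The reference table of 49997 GRCm38 genes held no Ensembl identifier (0 matched), so the lists by symbol, the promoter motifs and the protein-coding alternative were not run. The planned rule for named genes needed symbols; without them, 2 features per direction were named by largest CPM difference (past the threshold, a mean of 10 CPM or more on 1 day, days not overlapping), and the 2 per direction with the largest difference from both other lines (the smaller absolute interaction value, separation not required). The scran 1.30.0 lists, the level classes and the sets gained, lost or shared between lines were chosen after the files were seen. Every pair of replicate libraries differed by more than sampling noise (chi-square over its degrees of freedom was 4.80 or more).

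Alternatives were scaling by upper quartile or by RLE, DESeq2 1.42.0, testing without the low-count filter, only the libraries compared, a replicate block, thinning to 988210 counts, leaving out each library, leaving out the 3 dominated libraries and, added after the data were seen, separate fits of the Quaking KO and the other libraries.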

Additional observations from a re-analysis of the deposited data

Results flagged for a closer look

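For 6 of the features named, the change over 10 days in Quaking KO differed from that in another line by edgeR's interaction test (adjusted p below 0.05). On the log2 scale, relative to WT, ENSMUSG00000048583.16 differed by 1.88, ENSMUSG00000030074.9 by 6.93, ENSMUSG00000028989.3 by 6.71, ENSMUSG00000025480.5 by -6.50 and ENSMUSG00000065770.1 by -5.67. Relative to Sam68 KO, ENSMUSG00000026043.18 differed by 3.14, ENSMUSG00000030074.9 by 7.61, ENSMUSG00000028989.3 by 7.80, ENSMUSG00000025480.5 by -5.83 and ENSMUSG00000065770.1 by -6.71. The last 4 features were picked for these differences, had 0 to 3 counts in 1 Quaking KO group, and the lines differ in the pools their 2 days came from. ENSMUSG00000026043.18 likewise had only 3 counts in all at Quaking KO day 0. Its mean there, 0.395 CPM, lay under the mean floor of 1.18 CPM, so the size of its 3.14 is uncertain. Within pool MIX_3, at day 10, ENSMUSG00000028989.3 had means of 284 CPM (Quaking KO) and 10.0 CPM (Sam68 KO), and ENSMUSG00000030074.9 had means of 12.8 CPM (Quaking KO) and 1.36 CPM (Sam68 KO). The last value lay under the mean floor of 1.53 CPM in the Sam68 KO day 10 libraries.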

How the results depend on the processing

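The counts of features called higher and lower over 10 days in Quaking KO stayed within 1.5 times of 4755 and 4022 under every alternative run, although with no filter on low counts they were 4231 and 4725, and no called feature was called in the opposite direction. They were 3522 and 3120 after thinning, where 10598 features were tested, and 4341 to 4624 and 3679 to 3946 with each library of the line left out in turn. Differences between lines depended more on depth. After thinning, 280 features were more positive and 316 more negative in Quaking KO than in WT, 353 and 315 than in Sam68 KO, and 155 and 182 than in both. The calls shared across lines also came from separate fits, chosen after seeing the data, and each count stayed within 1.5 times. Without the 3 dominated libraries 604 were more positive than in Sam68 KO, and leaving out each library in turn gave 572 to 939. The difference of ENSMUSG00000026043.18 from WT, not called, was -0.0593 after thinning, and that of ENSMUSG00000077323.1 from Sam68 KO, not called, ran from -0.691 to 0.00169 when each library was left out, turning sign without Quaking KO day 10 replicate 1. The cause was not tested. Same-numbered libraries of the 2 days correlated by only 0.03, 0.06 and 0.02 in their deviations, so numbers are not taken to pair them; with a replicate block 4673 features were higher and 3995 lower, and the difference of ENSMUSG00000028989.3 from WT was not past the threshold (edgeR adjusted p = 0.0522). With no filter on low counts, 2 G2/M features rose, against 4 in the report. Of 783 combinations of a result and an alternative, 738 kept direction and side of the threshold, or a count within 1.5 times. ENSMUSG00000030074.9 was filtered out after thinning, so it has no value there.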
